A study of Mus musculus with 6 samples.

Results

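The genes described here encode the proteins of the cytosolic ribosome. They were taken by symbol: every symbol that starts with Rpl or Rps followed by a digit, together with Rpsa, Rplp0, Rplp1 and Rplp2, without the ribosomal S6 kinases, Rps19bp1 and rows named as pseudogenes. The rule found 87 of the 23237 symbols in the tables, 53 of the large subunit and 34 of the small subunit. These include Rpl37rt and Rps4l, which GENCODE M21 annotates as transcribed processed pseudogenes though their symbols do not mark them so. The series profiled mouse pancreatic acinar cells in primary culture, the makers of digestive enzymes, by 3′ tag sequencing of 6 libraries from strain C57BL/6J. The 3 control libraries carry the genotype label wild type, and the 3 conditional knock-out (cKO) libraries the label ERRgamma -/-, which names the orphan nuclear receptor encoded by Esrrg. All 6 were kept in Waymouth's medium with serum, antibiotics, a trypsin inhibitor and epidermal growth factor. The sources used here give neither the driver of the deletion, the part deleted nor the time in culture, and neither age nor sex. Nothing says that replicates came from separate animals, so a p-value measures only how these libraries vary, which may be technical variation.

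Library totals were 23.0 M to 25.2 M counts in control and 15.2 M to 17.0 M in cKO (M, mega). Esrrg had 0 counts in each control library and 0, 9 and 1 in cKO, so its 3′ tags gave no check of the genotype. A set of 35 dominant genes (digestive enzymes, Rn45s and Casp9) held 85.0% to 86.7% of control counts, and 27.5%, 60.3% and 31.9% in cKO replicates 1, 2 and 3. On the scale of trimmed mean of M values (TMM), which centres most genes on no difference, all 10 acinar markers fell. Their summed level was 741000 to 861000 CPM (counts per M of effective library size) in control and 20300 to 114000 in cKO. TMM factors, which turn library sizes into effective sizes, were 0.308 to 0.342 in control and 1.96 to 3.92 in cKO. Per M of all counts, the acinar sum was 250000 to 265000 in control and 79400 to 222000 in cKO. On the TMM scale all 10 macrophage markers rose (93.6 to 132 CPM in control, 345 to 698 in cKO). So did 9 of 10 fibroblast and stellate markers (807 to 886 and 3830 to 5590). Of the other lists, 3 of 8 endothelial markers fell and 0 rose, 1 of 6 tested B and T cell markers rose, 2 of 5 tested duct markers rose and 2 fell, and 0 of 6 islet markers passed the test. Across all 13132 tested genes 20.7% fell and 24% rose, so counts this small in short lists say little. No listed marker was at 0 in all controls. The part of these other cell types in the values below was not tested, and in bulk samples fewer cells of a type and less RNA per cell cannot be told apart. cKO replicate 2 stood nearest to the controls in these shares, and results are given with and without it.

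Ribosomal proteins are made in near-equal numbers and assembled with ribosomal RNA into a large subunit, which joins amino acids, and a small subunit, which reads the messenger RNA. Their messages are among the most abundant in a cell, and many start with a run of pyrimidines, the TOP motif, through which the growth kinase mTOR controls their translation. A few ribosomal proteins have a paralog that can take their place in the ribosome. In the acinar cell, ribosomes on the endoplasmic reticulum make the secreted enzymes.

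The paralogs whose ratios differed most between the groups were Rps27l with Rps27 and Rpl22l1 with Rpl22, and their coding sequences (whole for the first pair, the opening stretch for the other) are shown because they tell how far the copies can be told apart. Rps27l lies at chr9:66946086-66949516 on the plus strand and Rps27 at chr3:90212522-90213651 on the minus strand (GRCm38). Rpl22l1 lies at chr3:28805436-28807424 and Rpl22 at chr4:152325742-152334071, both on the plus strand. The sequences are from GENCODE M21 transcripts of GRCm38, and capitals mark bases of the paralog that differ from its parent or have no partner in it.
Rps27: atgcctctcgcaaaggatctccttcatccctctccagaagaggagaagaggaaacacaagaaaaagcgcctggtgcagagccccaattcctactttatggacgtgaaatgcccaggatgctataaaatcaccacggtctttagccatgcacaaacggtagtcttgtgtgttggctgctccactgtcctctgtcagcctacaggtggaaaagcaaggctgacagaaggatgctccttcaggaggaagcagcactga
Rps27l: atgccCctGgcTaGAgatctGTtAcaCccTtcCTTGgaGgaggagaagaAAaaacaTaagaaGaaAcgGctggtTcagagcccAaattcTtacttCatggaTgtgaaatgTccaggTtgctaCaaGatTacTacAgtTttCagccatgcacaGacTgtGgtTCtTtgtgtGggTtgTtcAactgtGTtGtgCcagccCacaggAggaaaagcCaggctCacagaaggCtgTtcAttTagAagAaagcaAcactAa
Rpl22: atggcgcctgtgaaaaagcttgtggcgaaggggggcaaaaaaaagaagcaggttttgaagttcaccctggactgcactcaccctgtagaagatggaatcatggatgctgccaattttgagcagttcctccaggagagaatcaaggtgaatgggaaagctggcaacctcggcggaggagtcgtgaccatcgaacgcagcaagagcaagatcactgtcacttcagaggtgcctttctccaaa
Rpl22l1: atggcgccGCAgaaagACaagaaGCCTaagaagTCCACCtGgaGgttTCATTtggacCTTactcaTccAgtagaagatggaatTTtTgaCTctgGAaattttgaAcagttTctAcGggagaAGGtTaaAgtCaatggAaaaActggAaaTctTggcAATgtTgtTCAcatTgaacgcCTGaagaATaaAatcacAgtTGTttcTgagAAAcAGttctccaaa
Rps27l shared 194 of 255 bases with Rps27 and differed at 61 (76.1% identity). Rpl22l1, with 369 bases against 387, shared 259 bases with Rpl22, differed at 110 and left 18 in gaps (66.9%). In the last 300 bases of their transcripts, where 3′ tags fall, no stretch of 50 bases of either paralog occurred in its parent. Genes other than the parent held 63.3% of these stretches of Rpl22l1 (3 genes) and 21.9% of those of Rps27l (2 genes). None of those of Rpl22 occurred in another gene. The copy Rps27rt at chr9:114982366-114982739 had the same coding sequence as Rps27, 255 of 255 bases. All of the 50-base stretches at the end of Rps27 occurred in Rps27rt, and 88.4% of those of Rps27rt in Rps27. The rows of these 2 genes are therefore uncertain, since the sources used here do not state how reads with several matches were counted.

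Transcription starts of these genes and of the copy Rps27rt are shown for the TOP motif, as 50 bases before the start and 20 from it, from RefSeq's promoters of GRCm38. Capitals mark an unbroken pyrimidine run that opens with C at the start. The windows are chr3:90213629-90213698 for Rps27 and chr9:114982720-114982789 for Rps27rt on the minus strand. On the plus strand they are chr9:66946036-66946105 for Rps27l, chr4:152325676-152325745 for Rpl22 and chr3:28805458-28805527 for Rpl22l1. Rps27l and Rpl22 have 2 listed starts each, of which the first is shown.
Rps27: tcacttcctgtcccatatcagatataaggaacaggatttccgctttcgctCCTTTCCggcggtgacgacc
Rps27rt: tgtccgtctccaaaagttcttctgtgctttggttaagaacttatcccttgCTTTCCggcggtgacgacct
Rps27l: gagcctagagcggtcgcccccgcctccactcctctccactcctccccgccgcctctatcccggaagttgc
Rpl22: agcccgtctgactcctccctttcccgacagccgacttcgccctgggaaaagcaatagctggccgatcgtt
Rpl22l1: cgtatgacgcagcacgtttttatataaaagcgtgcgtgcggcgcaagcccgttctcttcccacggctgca
The run was 7 bases long in Rps27 and 6 in Rps27rt, while Rps27l, Rpl22 and Rpl22l1 had none at the listed start. In all 3 of the latter the first base was a G, followed by a run of 5 pyrimidines in Rps27l, 1 in Rpl22 and 10 in Rpl22l1. These calls hold for the start shown and depend on its exact base, which was not checked. The GENCODE gene of Rpl22l1 opens at chr3:28805436, before the window shown. Whether these messages carry a TOP motif is therefore not settled here.

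Ribosomal protein messages took a larger share of the cKO libraries, but a lower summed level in cKO than in control once the libraries were scaled to the bulk of genes. They made up 0.766%, 0.797% and 0.763% of all counts in control replicates 1, 2 and 3, and 3.51%, 2.58% and 3.58% in cKO replicates 1, 2 and 3. Every cKO library was above every control library, with means of 0.775% ± 0.0190 and 3.22% ± 0.560 (SD, n = 3 each), a ratio of 4.16. On the TMM scale the summed level was 24.9, 23.7 and 22.3 kCPM (kilo-CPM) in control and 8.96, 13.2 and 9.78 kCPM in cKO. Here every cKO library was below every control library, with means of 23.6 ± 1.29 and 10.6 ± 2.24 kCPM (9.37 kCPM in cKO without replicate 2). Of the counts outside the 35 dominant genes, the members took 5.75%, 5.75% and 5.07% in control and 4.84%, 6.49% and 5.26% in cKO, and the groups overlapped (5.52% ± 0.391 and 5.53% ± 0.858). With 9 further abundant genes taken out, chosen after seeing the data, the shares were 10.8% ± 0.433 and 5.89% ± 1.21, which did not overlap. The direction of the sum therefore depended on what it was measured against, and no single direction is given for it. The plot of summed counts sets these scales side by side.

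**Figure D1:**
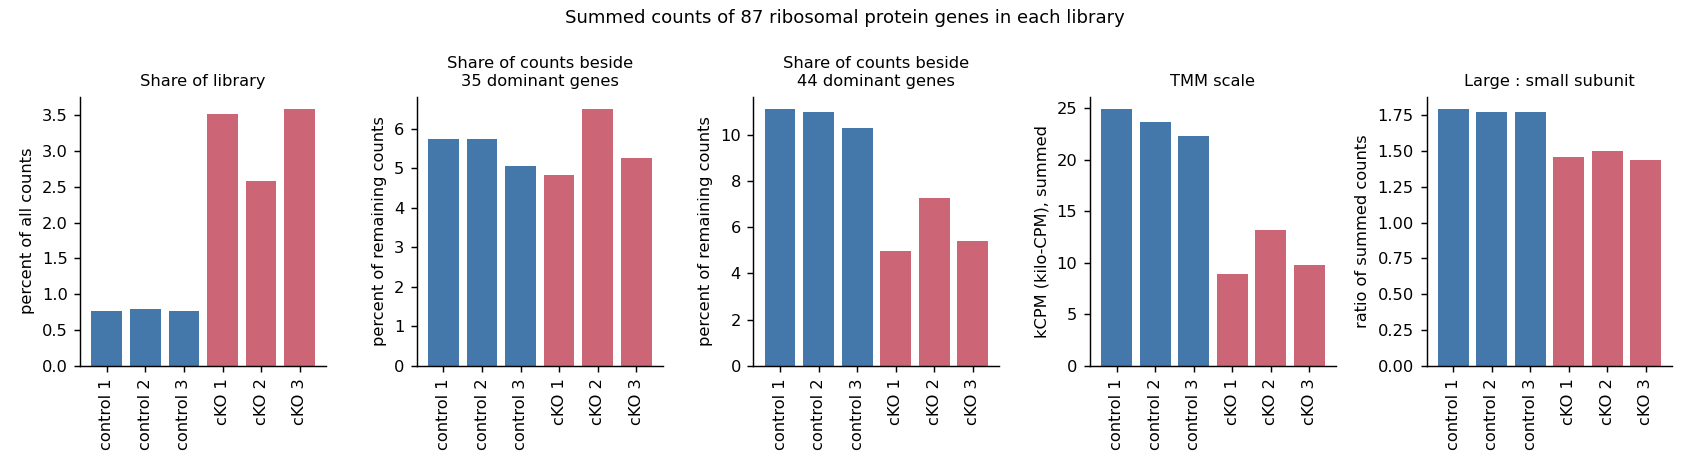
Summed ribosomal protein counts in each library (1 bar per library, 3 control and 3 cKO) as percent of the library, as percent of counts outside the 35 dominant genes and outside these and 9 further (44 in all), as TMM-scaled level in kCPM, and the ratio of large to small subunit counts. The cKO bars stand above control in percent of library (2.58% to 3.58% against 0.763% to 0.797%), overlap control outside the 35 dominant genes (4.84% to 6.49% against 5.07% to 5.75%), and stand below control in the other 3 panels.

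Gene by gene, nearly all members stood on the same side of control on the TMM scale. There 79 of 84 tested members fell and 0 rose (edgeR quasi-likelihood test, Benjamini-Hochberg adjusted p of 0.05), where 20.7% of all 13132 tested genes fell and 24% rose. Their median log2 fold change was -1.11, with a middle spread (interquartile range) of 0.46, against a median of 0.10 and a spread of 1.57 over all tested genes. At least 2-fold lower were 54 members, against 13.4% of all genes. In 81 of 84 every cKO library was below every control library, which held for 25.4% of all genes. Without cKO replicate 2 the median was -1.26 and 81 members fell, where 2829 of all 13977 genes then tested fell. In each of the 79 that fell, cKO replicate 2 was the highest cKO library, as in 73.4% of all genes that fell.

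Measured against library totals, the same 84 members were all higher, with a median of 2.10, while 96.4% of all genes were higher, 0.404% were lower, and the median of all genes moved to 3.36. Each of the 84 was higher as a percent of the library in every cKO library, as were 96.9% of all genes (exact 2-sided permutation p = 0.1 for each member, the smallest that 3 libraries against 3 allow). Against totals without the 35 dominant genes, 4 members were lower and 12 higher, where 4.65% of all genes were lower and 66.4% higher. The members' median minus that of all genes was -1.21 on the TMM scale, and a change of scale shifts all genes by nearly the same amount, so this distance is nearly fixed under every scale. Fold changes below are on the TMM scale unless another is named, and refer to the bulk of genes. They do not tell the number of messages per cell.

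**Figure D2:**
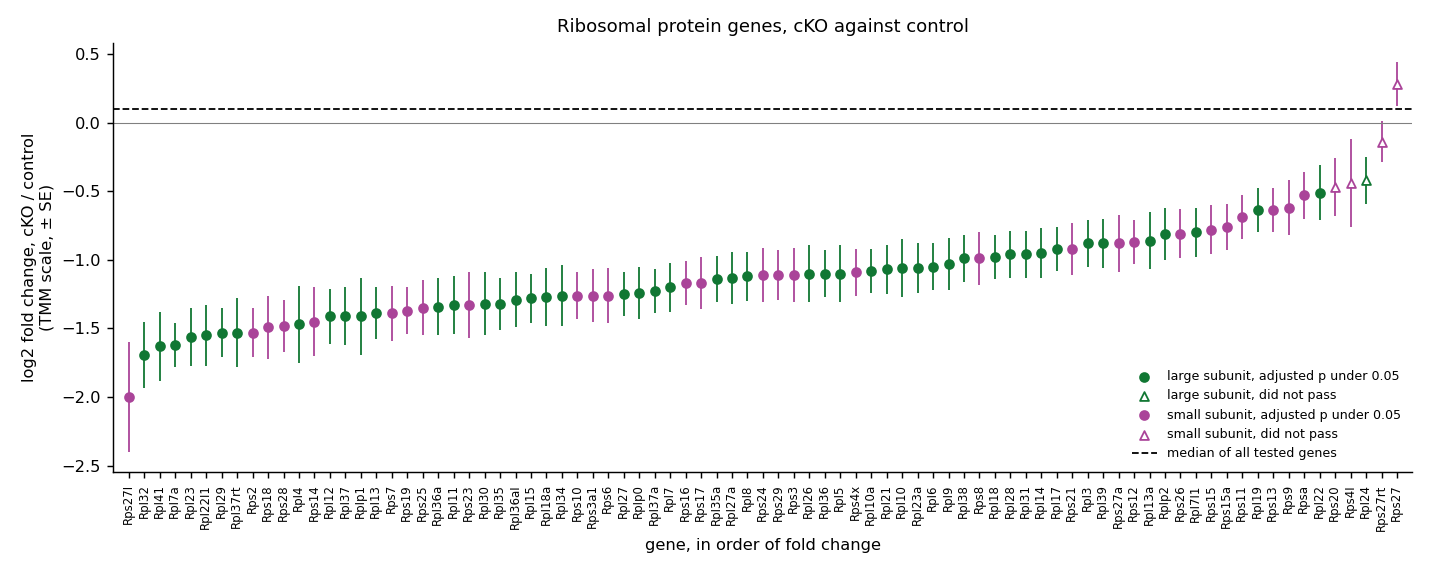
Log2 fold change (cKO against control, TMM scale) of 83 of the 84 tested ribosomal protein genes in rank order, with bars of 1 SE, colored by subunit, open where the test was not passed; the dashed line is the median of all tested genes. The values run from -2.0 for Rps27l to 0.28 for Rps27, and most lie near the members' median of -1.11.

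The large and small subunits fell by similar amounts. Of 50 tested large subunit genes 49 fell, with a median of -1.13 (range -1.69 to -0.42). Of 34 small subunit genes 30 fell, with a median of -1.10 (range -2.0 to 0.28). The small subunit genes were more spread, with an SD of 0.45 against 0.28. For comparison, 37 of 77 mitochondrial ribosomal protein genes, which encode the separate ribosome of that organelle, fell and 0 rose, with a median of -0.56. Their summed counts were 4.58%, 4.67% and 4.83% of the cytosolic sum in control and 7.16%, 5.90% and 6.79% in cKO, so the groups did not overlap. This ratio within a library does not depend on its scale. Relative to the same cytosolic sum, 68.9% of all tested genes were also higher without overlap. On the TMM scale 20.7% of all tested genes fell, and their median was 0.10.

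**Figure D3:**
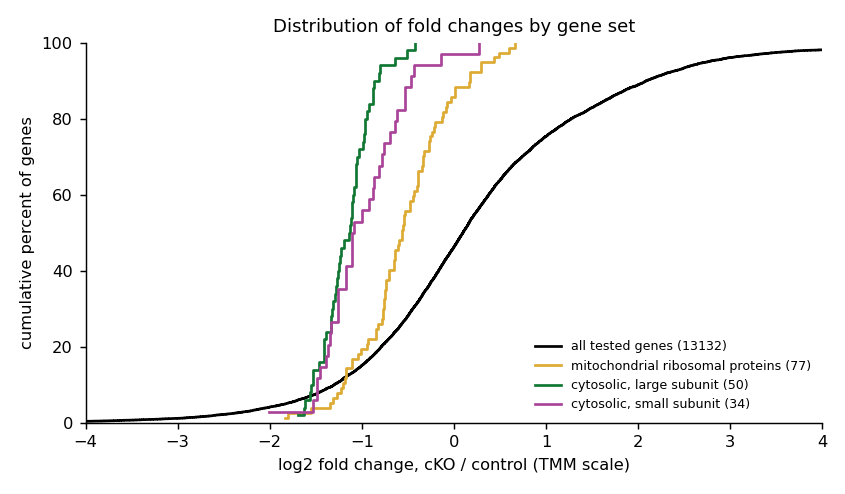
Cumulative percent of genes by log2 fold change (cKO against control, TMM scale) for all 13132 tested genes, for large and small subunit genes of the cytosolic ribosome, and for mitochondrial ribosomal protein genes. The curves cross the middle of the axis at -1.13 for large and -1.10 for small subunit genes, -0.56 for mitochondrial ones and 0.10 for all genes.

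The genes of the P stalk, the arm of the large subunit that recruits elongation factors, fell together but by unequal amounts. Of all tested members 79 of 84 fell, and of all tested genes 20.7%. Rplp1, the most abundant member, had 2200, 2150 and 2090 CPM in control and 784, 958 and 687 in cKO. No cKO library reached the controls, with a log2 fold change of -1.41 ± 0.28 (SE) and an edgeR adjusted p of 0.00075. Its partner Rplp2 had 346, 313 and 332 CPM in control and 179, 231 and 156 in cKO, again without overlap (-0.81 ± 0.19, adjusted p = 0.00285). Rplp0, the scaffold that anchors both, fell by 1.24 ± 0.19 on the log2 scale. The row of the pseudogene Rplp2-ps1 held more reads than Rplp2 itself, 213% of its control counts, and a row named Wdr89 had nearly the same counts as that pseudogene. The level of Rplp2 is uncertain for that reason.

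Among proteins known to bind MDM2 and so link the ribosome to p53, Rpl5, Rpl11 and Rpl23 all fell. So did 79 of 84 tested members and 20.7% of all tested genes. Rpl23 had 572, 498 and 480 CPM in control and 141, 225 and 159 in cKO, with no overlap (-1.56 ± 0.21, adjusted p = 3.79e-05). Rpl11 fell by 1.33 ± 0.21 and Rpl5 by 1.10 ± 0.21, and these 2 proteins travel together with a small ribosomal RNA into the large subunit. All 8 listed genes of the rim of the exit tunnel, through which the new chain leaves, fell. Their median was -0.94, against -1.11 over all tested members. Among them Rpl22 fell least and lay close to the threshold (-0.51 ± 0.20, adjusted p = 0.0485), and it missed the threshold when a control library, or cKO replicate 1 or 3, was left out (0.104 to 0.178).

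The 3 genes named for the catalytic and decoding centres each fell. Rpl8, beside the site of peptide bond formation, fell by 1.12 ± 0.18 on the log2 scale, and Rpl10, which joins the large subunit late, by 1.06 ± 0.21. Rps23 of the decoding centre fell by 1.33 ± 0.24. Rps6, the substrate of the S6 kinases, fell by 1.26 ± 0.20, with 188, 183 and 163 CPM in control and 55.7, 99.2 and 68.1 in cKO. Over all tested members 79 of 84 fell (median -1.11), and 20.7% of all tested genes fell. All 9 listed genes whose loss in humans causes Diamond-Blackfan anaemia, a failure of red cell production, also fell, with a median of -1.17. Of these Rps19 fell by 1.37 ± 0.17, Rpl35a by 1.14 ± 0.17, Rps24 by 1.11 ± 0.20 and Rps26 by 0.81 ± 0.18. Each of these 9 passed the test in edgeR, and the largest adjusted p among those named was 0.00175, for Rps26.

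Some components lie outside the symbol rule or at its edge. Rps27a, which is made as a fusion with ubiquitin, fell by 0.88 ± 0.21. Gnb2l1, the older symbol of Rack1, fell by 0.80 ± 0.19. Fau, the fusion that yields a small subunit protein, did not pass the test (-0.30 ± 0.15, adjusted p = 0.112). Rpsa, the small subunit protein also known as a laminin receptor, had 197, 171 and 183 CPM in control and 117, 154 and 111 in cKO. Its cKO values lay below the controls (-0.53 ± 0.17, adjusted p = 0.0221), but it missed the threshold when a control library, or cKO replicate 1 or 3, was left out (0.0542 to 0.136). Of 16 translation factors and related genes with TOP messages, 10 fell, 2 rose (Pabpc1, 0.43, and Nap1l1, 0.49) and the median was -0.58. Over all tested genes 20.7% fell, 24% rose and the median was 0.10.

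The largest falls were those of Rps27l, Rpl32, Rpl41, Rpl7a and Rpl23. Rpl32 of the large subunit had 939, 946 and 831 CPM in control and 224, 364 and 252 in cKO (-1.69 ± 0.24, adjusted p = 4.48e-05). Rpl41, the smallest ribosomal protein, had 1310, 1150 and 1210 CPM in control and 328, 514 and 344 in cKO (-1.63 ± 0.25, adjusted p = 1e-04). Rpl7a had 78.6, 77.6 and 68.2 CPM in control and 21.3, 27.7 and 24.1 in cKO, the tightest cKO values of these (-1.62 ± 0.16, adjusted p = 2.3e-06). In all 3, each cKO library was well below each control library. Of the 251 stretches of 50 bases at the end of Rpl7a, 80.5% also occurred in other genes, so reads may have been lost or shared.

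At the other end, 5 tested members did not pass the test. Rps20 had 636, 642 and 647 CPM in control and 428, 545 and 421 in cKO, all below the controls (-0.47 ± 0.21, adjusted p = 0.0797). Rpl24, at the bridge between the subunits, had 99.7, 104 and 118 CPM in control and 71.8, 95.8 and 73.1 in cKO, also without overlap (-0.42 ± 0.17, adjusted p = 0.0509). With 1 library left out, adjusted p ran from 0.000778 to 0.286 for Rps20 and from 0.00123 to 0.208 for Rpl24, and both were lowest, past the threshold, without cKO replicate 2. DESeq2 also called Rps20 (adjusted p = 0.0131). Rps27rt had 55.2, 52.9 and 46.6 CPM in control and 42.1, 52.6 and 45.9 in cKO, which overlap (-0.14 ± 0.15, adjusted p = 0.496). Rps27, a zinc-binding small subunit protein, had 28.4, 26.2 and 21.2 CPM in control and 30.2, 32.3 and 29.4 in cKO, and was the 1 tested member with cKO values all above control (0.28 ± 0.16, adjusted p = 0.178). Rps4l had 6.91, 5.54 and 2.79 CPM in control and 3.45, 4.01 and 3.8 in cKO, which overlap (-0.44 ± 0.32, adjusted p = 0.290).

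Within the pool of ribosomal protein counts, small subunit messages took a larger part in cKO. The ratio of large to small subunit counts was 1.79, 1.77 and 1.77 in control and 1.46, 1.5 and 1.44 in cKO. Every cKO library was below every control library, with means of 1.78 ± 0.00767 and 1.47 ± 0.0317 (SD, n = 3 each), or 1.45 in cKO without replicate 2. The share of the large subunit went from 64.0% ± 0.0993 to 59.5% ± 0.518. Taking out the 6 most abundant members (Rplp1, Rpl41, Rps14, Rpl32, Rpl37rt and Rps20) left ratios of 1.46 ± 0.0117 and 1.31 ± 0.0331, still without overlap. Of these, Rpl37rt is annotated as a transcribed processed pseudogene. Without Rps27rt, Rpl37rt and Rps4l the ratios were 1.70 ± 0.00554 and 1.42 ± 0.0248, again without overlap. Taking out the 5 largest and 5 smallest fold changes left 1.61 ± 0.00400 and 1.44 ± 0.0246. The summed ratio weights members by their abundance, which the medians of the subunits do not.

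Of 84 tested members, 23 took a smaller share of the pool in every cKO library than in every control library, 26 a larger share, and 35 overlapped. Relative to the same pool, 6.15% of all genes were lower without overlap and 68.9% higher. By subunit, 14 of 50 large subunit genes were lower and 12 higher, and 9 of 34 small subunit genes were lower and 14 higher. Rpl41 went from 5.19% ± 0.305 to 3.70% ± 0.191 of the pool, Rplp1 from 9.11% ± 0.283 to 7.68% ± 0.937 and Rpl32 from 3.83% ± 0.145 to 2.61% ± 0.134. Among those with a larger share, Rps20 went from 2.72% ± 0.173 to 4.41% ± 0.334 and Rps9 from 2.59% ± 0.0365 to 3.78% ± 0.329. Rpl22 went from 1.74% ± 0.1 to 2.71% ± 0.0632 and Rpsa from 0.779% ± 0.0520 to 1.20% ± 0.0915. The fold change of the members was nearly unrelated to their abundance, with a Spearman correlation of -0.11 across 84 genes that share the same libraries.

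**Figure D4:**
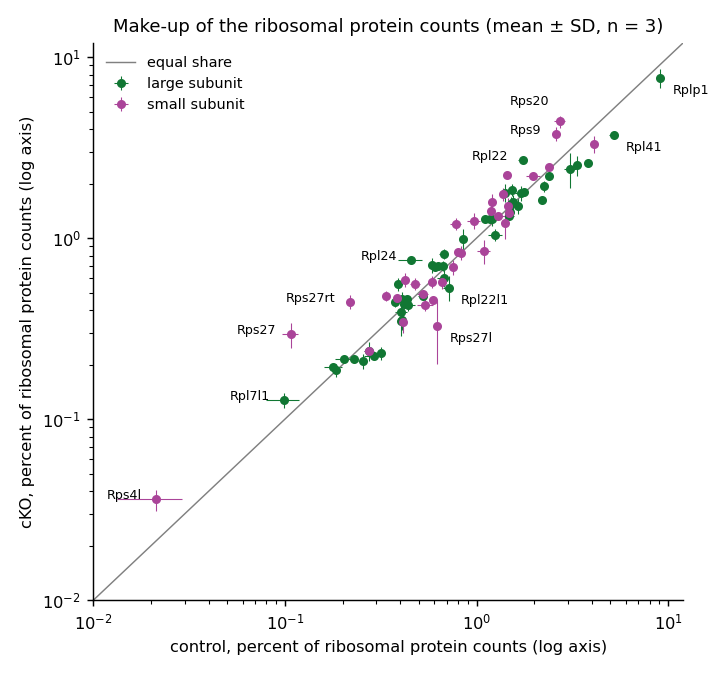
Share of each ribosomal protein gene in the summed ribosomal protein counts, mean of 3 control libraries against mean of 3 cKO libraries, in percent on log axes with bars of 1 SD. Rpl41, Rplp1 and Rpl32 lie below the line of equal shares, and Rps20, Rps9 and Rpl22 above it.

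Paralog ratios compare a gene with a related copy within a library, so they do not depend on its scale. Of 10 listed pairs, 7 had both genes tested, and in 4 of these the groups did not overlap. Set against the ribosomal protein pool, 6.15% of all tested genes were lower without overlap and 68.9% higher. Other gene pairs were not examined. Rps27l, a paralog known as a target of p53, was counted 1199, 1205 and 1106 times in control and 1157, 2044 and 1758 times in cKO, while Rps27 was counted 214, 222 and 167 times in control and 1794, 1071 and 1761 times in cKO. For each 100 reads of Rps27 there were 560, 543 and 662 of Rps27l in control, and 64.5, 191 and 99.8 in cKO. Since the row Rps27rt shares its sequence with Rps27, the reads of both were also added, an alternative chosen after seeing the data. Against this sum there were 191, 180 and 207 reads of Rps27l for each 100 in control and 26.9, 72.6 and 38.9 in cKO. By the sum, Rps27l thus had more counted reads in each control library and fewer in each cKO library. By the row Rps27 alone, Rps27l still had more in cKO replicate 2. Of the stretches at the transcript end, 100% of those of Rps27 also occurred in other genes (9 genes). For Rps27rt it was 88.4% (8 genes), and for Rps27l 21.9% (2 genes). Reads of Rps27 and Rps27rt may therefore have been lost or placed in other rows, which the sum does not mend. The counts do not tell which copy was more abundant. The log2 ratio to Rps27 alone moved from 2.55 ± 0.15 to 0.10 ± 0.79 (SD, n = 3 each), a difference of -2.45 (exact 2-sided permutation p = 0.1, adjusted 0.175 over the 7 pairs). It was -2.87 without cKO replicate 2 and -2.18 against the sum. Rps27l itself fell most of all members, from 159, 142 and 140 CPM to 19.5, 61.7 and 29.3 (-2.0 ± 0.40, adjusted p = 0.00467, or -2.58 without cKO replicate 2).

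Rpl22l1, whose message Rpl22 is known to hold down, was also lower relative to its parent in cKO. There were 43.3, 36.4 and 44.2 reads of Rpl22l1 for each 100 of Rpl22 in control, and 16.3, 22.4 and 19.9 in cKO. The groups did not overlap, and the log2 ratio moved from -1.28 ± 0.16 to -2.37 ± 0.23 (exact permutation p = 0.1, adjusted 0.175), a fold of 0.471. On the TMM scale Rpl22l1 had 178, 159 and 169 CPM in control and 39.1, 79.0 and 54.1 in cKO (-1.55 ± 0.22, adjusted p = 6e-05). Rpl22 had 411, 437 and 381 CPM in control and 239, 352 and 272 in cKO. Both were therefore lower in cKO against the bulk of genes, Rpl22l1 by more.

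The other 5 tested pairs moved less. Reads of Rps27rt for each 100 of Rps27 were 194, 202 and 220 in control and 139, 163 and 156 in cKO (difference of log2 ratio -0.43, exact permutation p = 0.1, adjusted 0.175), though these rows share nearly all their sequence. Rps4l, annotated as a transcribed processed pseudogene, had 3.6, 2.9 and 1.53 reads for each 100 of Rps4x in control and 4.53, 3.76 and 4.56 in cKO (0.74, exact permutation p = 0.1, adjusted 0.175). In its control libraries this rested on 52, 47 and 22 counts. The groups overlapped for Rpl7l1 with Rpl7 (0.40), Rpl36al with Rpl36a (0.05) and Rpl37rt with Rpl37 (-0.15), with exact permutation p of 0.3, 0.9 and 0.2. No pair could reach the threshold with 3 libraries against 3. The paralogs Rpl3l, Rpl10l and Rpl39l, known from muscle and testis, were not tested: Rpl3l had 0 counts in each control library and 5, 2 and 1 in cKO, Rpl10l 0 in control and 1, 0 and 0 in cKO, and Rpl39l 0 in control and 0, 2 and 5 in cKO. A count of 0 allows up to 3 counts in a library.

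**Figure D5:**
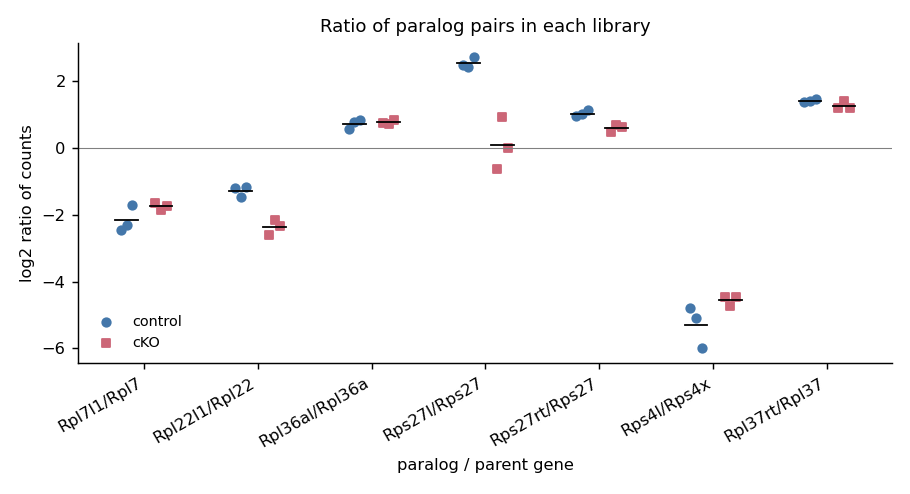
Log2 ratio of paralog to parent gene counts in each library, for the 7 pairs with both genes tested; lines are group means. Rps27l over Rps27 lies at 2.44 to 2.72 in control and -0.63 to 0.93 in cKO, and Rpl22l1 over Rpl22 at -1.46 to -1.18 and -2.61 to -2.16.

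Ribosomal protein genes have many processed copies, which limits how exactly reads can be placed. In the last 300 bases of the transcripts, a median of 50.6% of the 50-base stretches of a member occurred in another gene. For 27 members none did, and for 4 (Rpl10, Rpl36a, Rpl9 and Rps27) all did. The median log2 fold change was -1.12 for the 40 tested members with under 50% of stretches shared and -1.10 for the 44 with more. Adding the reads of the 7 pseudogene rows to their parent genes left 79 members that fell, where 2709 of all 13125 genes then tested fell.

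Promoters of 66 of the 87 members were matched in RefSeq's table of GRCm38, which gives the bases around the start of 27025 genes. A start with C followed by 4 pyrimidines was found in 14 (21.2%), against 3.01% of all genes, and a run of at least 8 pyrimidines near the start in 29 (43.9%, against 15.8%). The ETS motif CCGGAAG, read on both strands, was found in 26 (39.4%, against 9.93%), and the YY1 motif AAGATGG in 10 (15.2%, against 7.28%). The motif AAGGTCA, to which estrogen-related receptors bind, was found in 5 (7.58%, against 5.38%): Rpl10l, Rpl24, Rpl35a, Rpl3l and Rps3. The 3 of these that were tested had a median log2 fold change of -1.11, and the 60 without the motif -1.15. The median was -0.97 for tested members with a C and 4 pyrimidines at the start and -1.17 for those without. It was -1.11 with and -1.20 without the longer pyrimidine run, and -0.83 with and -1.23 without AAGATGG. It was -1.26 with and -1.10 without CCGGAAG, -1.24 with and -1.08 without GGGCGG (the Sp1 motif, found in 60.6%, against 38.2% of all genes), and -1.34 with and -1.11 without TATAAA (10.6%, against 15.7%). Carriers of a motif thus had medians on either side of the rest, and no test was made. The motifs CCGGAAG and AAGATGG share the letters AAG and can overlap. These matches are of letters in a window and show no binding.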

How the data were processed

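For each library the authors deposited a table of raw, unnormalized read counts by gene symbol. Per the labels' protocols, a Lexogen QuantSeq kit was used on 500 ng of RNA. The submitters' processing notes name Bowtie2, edgeR, mm10 and GRCm38 without versions. How reads were counted, by which annotation and strand, is not stated in the sources used here. No molecular identifiers are described, and the floor of 3 counts covers counting error only. SD and SE also hold the variation between these libraries.

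Members and lists were chosen with earlier results of these data known. All genes kept by filterByExpr (minimum count 10, minimum total 15) were fitted with edgeR 4.0.16 in R 4.3.3 (TMM, robust glmQLFit, glmQLFTest), with Benjamini-Hochberg adjustment over 13132 genes and a threshold of 0.05. SE is the log2 fold change over the square root of F. Levels are CPM of effective library size. Paralog ratios used a pseudocount of 0.5 and exact 2-sided permutation tests. Named genes are the members of the paralog pairs, the 5 largest and 5 smallest log2 fold changes, members that did not pass, the 6 most abundant, genes of set roles, and Fau and Gnb2l1. Rps9 was chosen after its values were seen. A few gene values are not reported here. Alternatives were library totals, totals without dominant genes, DESeq2 1.42.0, no filter, each library left out, a replicate block, pseudogene rows added, and a pseudocount of 2. The taking out of 9 further genes and of near-identical copies was chosen after seeing the data. Scripts were tested on simulated data.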

Additional observations from a re-analysis of the deposited data

How the results depend on the processing

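On library totals 0 members were lower and 84 higher, with medians of 2.10, 2.08 and 2.13 for all, large and small subunit members. Of 40 named genes run under each alternative (the tested members named by rule, Rps9, Fau and Gnb2l1), 39 changed sign there: Rpl7l1 2.43, Rpl22l1 1.61, Rpl36al 1.89, Rps27l 1.07, Rps27rt 3.10, Rps4l 2.83, Rpl37rt 1.63, Rpl3 2.35, Rpl7 2.02, Rpl10 2.12, Rpl22 2.70, Rpl39 2.33, Rpl36a 1.83, Rps4x 2.13, Rpl37 1.78, Rpl32 1.49, Rpl41 1.56, Rpl7a 1.62, Rpl23 1.63, Rps20 2.76, Rpl24 2.79, Rplp1 1.82, Rps14 1.72, Rpl5 2.07, Rpl11 1.83, Rplp0 1.97, Rplp2 2.40, Rps6 1.92, Rps19 1.84, Rps24 2.11, Rps26 2.41, Rpl35a 2.08, Rpl8 2.12, Rps23 1.82, Rps27a 2.29, Rpsa 2.69, Rps9 2.61, Fau 2.95, Gnb2l1 2.43. On totals without the 35 dominant genes 4 members were lower and 12 higher, the medians were 0.04, 0.02 and 0.06, the difference in share was 0.00829 points, 31 of the 34 named genes that were lower lost that call (Rps27l, Rpl32 and Rpl7a kept it) and 21 of 40 changed sign: Rpl7l1 0.36, Rps27rt 1.02, Rps4l 0.72, Rpl3 0.28, Rpl10 0.08, Rpl22 0.64, Rpl39 0.27, Rps4x 0.07, Rps20 0.69, Rpl24 0.74, Rpl5 0.04, Rplp2 0.35, Rps24 0.05, Rps26 0.34, Rpl35a 0.02, Rpl8 0.04, Rps27a 0.27, Rpsa 0.62, Rps9 0.54, Fau 0.85, Gnb2l1 0.36. With 9 further genes taken out, 73 members were lower and 1 higher, where 1954 of all 13132 tested genes were lower. The medians were then -0.83 for all and -0.86 for large subunit members. The difference in share was -4.9 points, and Rps27rt was at 0.14.

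Leaving out 1 library gave 75 to 81 lower members, medians of -1.26 to -1.01, and a difference between subunit medians of -0.11 to -0.04. Among all tested genes, between 2076 of 13421 and 2829 of 13977 were then lower, with medians of 0.10 to 0.15. The log2 ratio of Rpl36al to Rpl36a moved between -0.03 and 0.11. None of the log2 fold changes of these 40 genes changed sign on leaving out a library, with DESeq2, without the filter, or with the replicate block. Rps9 missed the threshold when a control library, or cKO replicate 1 or 3, was left out (adjusted p 0.0536 to 0.108), and Fau passed without cKO replicate 2 (0.0298). With Rps27rt added to Rps27, the difference in the log2 ratio of Rps27l to Rps27 was -2.18.

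Same-numbered libraries did not deviate together (correlations 0.01, -0.03 and -0.01), and neither did differently numbered ones (-0.04 to 0.04). Such values cannot tell whether libraries of the same number share a batch, which the sources used here do not state. With the replicate block 76 members were lower and 0 higher, where 2505 of all 13132 tested genes were lower. Rpl22 and Rps9 lost their calls (edgeR adjusted p = 0.0853 and 0.0594). Depth limits Rps4l and the untested paralogs most.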

Other observations

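The rule leaves out Rps19bp1 and the genes whose symbols name them as S6 kinases. The symbol alone does not tell whether a kinase acts on Rps6. Rps6kb1, the best known of these kinases, was counted 287, 342 and 396 times in control libraries and 853, 525 and 898 times in cKO, and fell on the TMM scale (-1.51 ± 0.16, edgeR adjusted p = 4.83e-06). Rps6ka4 rose (1.02 ± 0.37, adjusted p = 0.0343). Rps6ka5 had 0 counts in each control library and 21, 14 and 34 in cKO, and passed the test as higher. These cKO counts stem from effective library sizes of 59.4 M, 33.2 M and 60 M, against 7.52 M to 8.49 M in control. A count of 0 allows 0.353 to 0.399 CPM in the controls, and the cKO levels lie close to that. No fold is therefore given. Rps6ka6 was not tested, and the remaining 7 symbols of this group did not pass the test.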
